A study of Homo sapiens with 7 samples.

Results

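Integrins and the extracellular matrix genes around them were described in cultured SKOV3 cells, an established line from a human ovarian carcinoma. The set was a named list of 51 genes: 12 integrin alpha subunits, 6 integrin beta subunits, 8 laminin chains, 11 collagen chains, 6 other matrix proteins, and 8 matrix metalloproteinases (MMPs) or their inhibitors. A gene was taken from the transcript clusters of the array whose annotation gives that gene's symbol alone, and the brightest cluster, by its mean over all 7 arrays, stood for a gene with several, which mattered only for TIMP3. This gave 48 of the 51 genes, among 17958 genes measured in all. ITGA1, ITGA4 and LAMA3 had no such cluster and were not analysed here. The list was drawn up with earlier results of these arrays known, so its counts are a description of these arrays.

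The study set stable lentiviral SKOV3 clones, all kept under puromycin, on Affymetrix Human Gene 1.1 ST arrays to ask which genes CtBP1 and CtBP2 regulate differently. CtBP1 and CtBP2 are related transcriptional co-repressors. The groups held 2 scramble control arrays, 3 arrays labelled CtBP1 knockdown and 2 labelled CtBP2 knockdown, and the design text counts as many clones in each. The labels do not name the knockdown sequences, and the sample labels tie no array to a clone or culture, so the tests rest on how these 7 arrays vary, and that variation may be technical.

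Integrins are cell-surface receptors built from an alpha and a beta chain, and the pairing sets which matrix protein a cell can hold. The alpha V chain can pair with several beta chains and reads ligands such as vitronectin, osteopontin and thrombospondin, while the pair of alpha 6 and beta 4 binds the laminins of the basement membrane. Laminins and type IV collagen form that membrane, fibrillar collagens and fibrillin form the looser matrix beyond it, and MMPs cut these proteins while TIMPs hold the MMPs in check. In ovarian cancer these molecules are known for their part in attachment of tumour cells to the peritoneal lining.

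Some facts of the arrays bear on every value below. All signals are the authors' RMA values on the log2 scale, where 1 unit is a doubling, and differences are on that scale too. Scramble control 1 correlated with the other arrays at 0.926 to 0.941 over all genes, while correlations among the remaining 6 ran from 0.971 to 0.993. Its mean log2 signal over 8 markers of dividing cells was 4.88, against 7.19 to 7.54 on the other 6 arrays. The interquartile range of its log2 signals was 2.20, against 2.85 to 3.15 on the other arrays. The part of this array's difference in the results was not tested, and differences are given without it where that moved them by over 1.5 times. The CTBP2 signal (log2) was 4.64 and 4.22 in the CtBP2 knockdown and at least 5.70 elsewhere. On the arrays labelled CtBP1 knockdown it was 6.25, 6.31 and 6.27, above both scramble arrays (5.70 and 6.14). The CTBP1 signal was 6.81 and 6.32 in the CtBP2 knockdown, above all arrays labelled CtBP1 knockdown. CTBP1 had signals of 5.11, 6.13 and 6.13 on the arrays labelled CtBP1 knockdown against 5.69 and 6.37 on the scramble arrays. The former are therefore called CtBP1-labelled, and where both groups are called knockdowns, the word follows the labels only. The cells carried ovarian carcinoma markers: ERBB2 ran from 8.52 to 9.58 and PAX8 from 6.41 to 8.65, while WT1 stayed between 1.92 and 2.21. Of 8 epithelial markers, 5 had means above the median of all genes, such as KRT8 at 8.35 to 9.35 and EPCAM at 4.59 to 6.53, while CDH1, the epithelial cadherin, stayed between 2.36 and 3.27. All 8 fibroblast markers and all 8 endothelial markers had means under that median, which was 3.25. Of 7 leukocyte markers only CD68, which other cells also make, lay above it.

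No gene of the set passed the test in any comparison. The test was a limma fit over all 17958 genes, with adjusted p under 0.05 as the threshold, and the smallest adjusted p among the 48 genes was 0.734 for CtBP1-labelled arrays against scramble control, 0.238 for CtBP2 knockdown against scramble control and 0.212 for CtBP1-labelled arrays against CtBP2 knockdown. Over all genes that test called 0%, 0.00557% and 0%. At an unadjusted p under 0.05, limma gave 9 of the 48 genes for CtBP1-labelled arrays against scramble control, where 4.79% of all genes lay under that limit. Of these, 7 were higher (2.87% of all genes) and 2 lower (1.92%). The count was 4 (against 7.68% of all genes) without scramble control 1, 14 (against 36.3%) without scramble control 2, 5 (against 3.87%) without CtBP1-labelled array 1 and 6 or 7 (against 2.76% to 4.42%) without each of the other arrays. For CtBP2 knockdown against scramble control there were 11, where 10.2% of all genes lay under the limit, with 7 higher (7.19% of all genes) and 4 lower (2.98%). Leaving out array 1 of the CtBP2 knockdown gave 3 (against 4.33% of all genes), and leaving out its array 2 gave 6 (against 5.14%). The knockdowns set against each other gave 7 genes, where 7.77% of all genes lay under the limit, with 3 higher (2.46% of all genes) and 4 lower (5.31%) on the CtBP1-labelled arrays. Without CtBP2 knockdown array 1 there were 4 (against 3.74% of all genes).

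The median log2 difference over the 48 genes was 0.08 for CtBP1-labelled arrays against scramble control, beside -0.0047 over all genes. It was -0.00036 for CtBP2 knockdown against scramble control, beside -0.02, and 0.03 for the knockdowns against each other, beside 0.01. Non-overlapping groups of arrays were seen for 13 of the 48 genes in the first comparison, where 14.4% of all genes had them. Of these, 8 were higher (6.76% of all genes) and 5 lower (7.59%). The second comparison gave 19, where 41% of all genes had them, with 14 higher (19.3% of all genes) and 5 lower (21.7%). The third gave 18, where 32% of all genes had them, with 9 higher (16.2%) and 9 lower (15.8%). From lowest to highest array, 24 of the 48 genes varied by under 1 log2 unit over the 7 arrays and 11 by over 2. In bulk RNA, fewer cells making a transcript and less transcript per cell cannot be told apart, and signals of different genes come from different probes, so genes are not ranked by level.

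**Figure D1:**
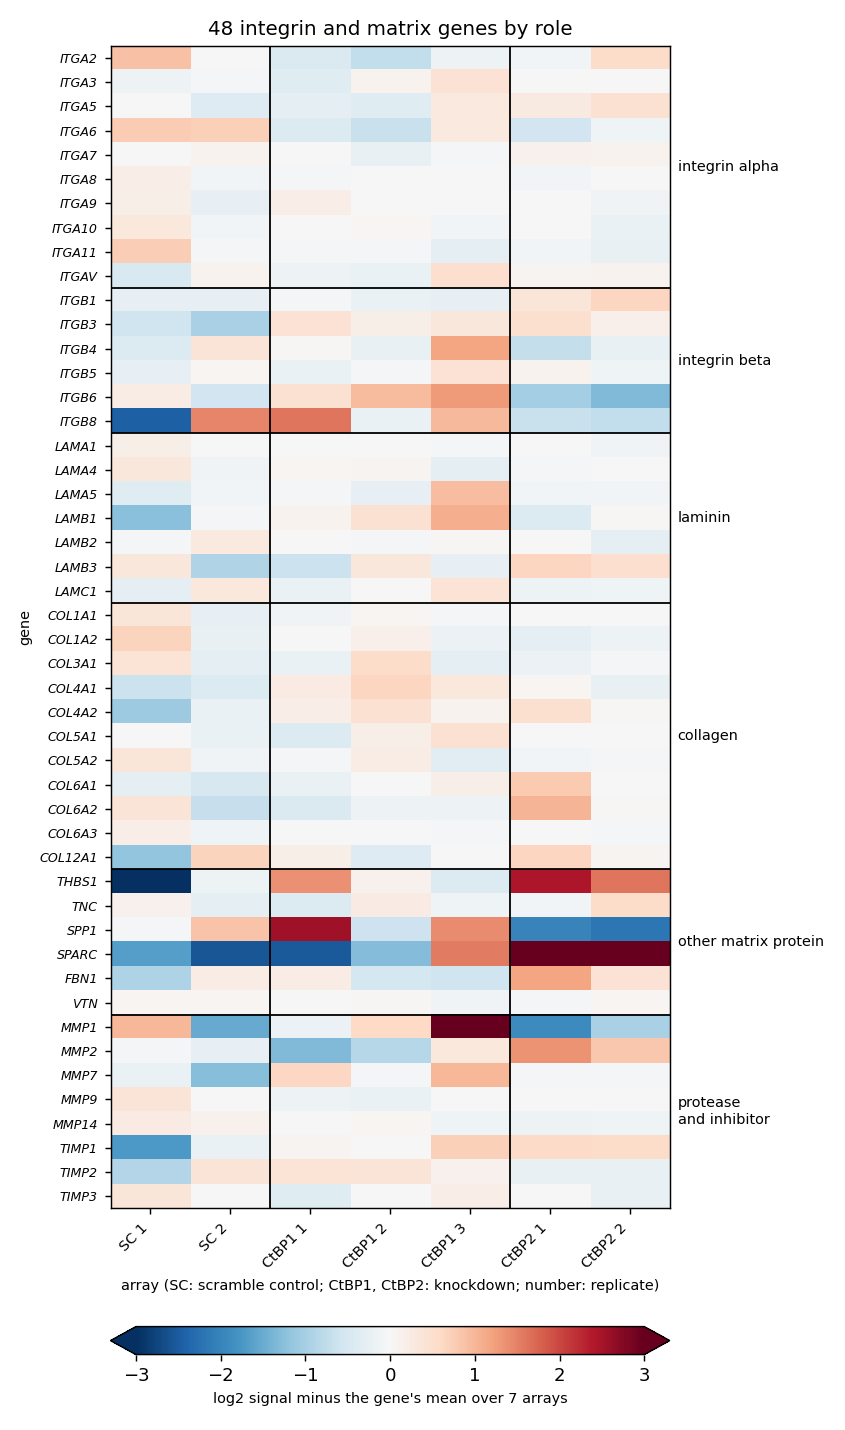
Log2 signal of each of the 48 genes minus its mean over the 7 arrays (colour, limited to -3 to 3), with genes in rows grouped by role and arrays in columns (SC, scramble control; CtBP1, arrays labelled CtBP1 knockdown; CtBP2, CtBP2 knockdown). The strong colours lie in a few rows, such as THBS1 on scramble control 1 and SPARC on the CtBP2 knockdown arrays, while most rows are pale.

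Among the integrin alpha chains, ITGA6, the laminin-binding alpha 6 chain, lay below both controls on the CtBP1-labelled and the CtBP2 knockdown arrays. It was measured at 7.60 and 7.54 on the scramble arrays, 6.44, 6.17 and 7.13 on the CtBP1-labelled arrays and 6.26 and 6.72 on the CtBP2 knockdown arrays. The 2 controls nearly coincided and all 5 other arrays were under them. The CtBP1-labelled arrays differed from scramble by -0.99 ± 0.30 (log2, here and below with the standard error that limma gives; 3 arrays against 2) and the CtBP2 knockdown by -1.08 ± 0.33 (2 against 2), with adjusted p of 0.734 and 0.411. These 2 differences share their controls. The size hardly depended on which control was kept, at -0.97 and -1.02 for the CtBP1-labelled arrays without scramble control 1 and 2. ITGA2, the collagen-binding alpha 2 chain, was at 5.38 and 4.5 on the scramble arrays, 4.07, 3.76 and 4.36 on the CtBP1-labelled arrays and 4.41 and 5.05 on the CtBP2 knockdown arrays. The CtBP1-labelled arrays lay under all other 4, and the difference from scramble was -0.88 ± 0.34 (adjusted p = 0.734), or -0.44 without scramble control 1 and -1.32 without scramble control 2.

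Other alpha chains varied less. ITGAV, the alpha V chain shared by several matrix receptors, was at 6.09 and 6.66 on the scramble arrays, 6.40, 6.36 and 7.06 on the CtBP1-labelled arrays and 6.62 and 6.65 in the CtBP2 knockdown, and all groups overlapped. ITGA3, another laminin-binding chain, had 8.35 and 8.48, then 8.15, 8.61 and 8.94, then 8.53 and 8.52 in the same order, a range of 0.79 over the 7 arrays. ITGA5, the fibronectin-binding alpha 5 chain, was higher on both CtBP2 knockdown arrays (5.72 and 5.90) than on the scramble arrays (5.42 and 5.06), by 0.57 ± 0.26 (adjusted p = 0.514). Its CtBP1-labelled signals of 5.16, 5.07 and 5.73 overlapped the controls. The alpha chains ITGA7, ITGA8, ITGA9, ITGA10 and ITGA11, which serve muscle, nerve and connective tissue, had signals between 1.42 and 2.66 on all arrays.

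The beta chains held the set's smallest p in every comparison. ITGB3, partner of the alpha V chain and, in platelets, of alpha IIb, was measured at 3.79 and 3.42 on the scramble arrays, 4.83, 4.58 and 4.73 on the CtBP1-labelled arrays, and 4.89 and 4.56 on the CtBP2 knockdown arrays. All 5 other arrays were above both controls, and the CtBP1-labelled and CtBP2 knockdown arrays overlapped each other. The log2 differences from the shared controls were 1.11 ± 0.18 (adjusted p = 0.734) and 1.12 ± 0.19 (adjusted p = 0.238), folds of 2.15 and 2.17 without passing the test. Without scramble control 1 they were 1.29 and 1.30, and without scramble control 2, which leaves scramble control 1 as the lone control, they were 0.92 and 0.93 and passed (adjusted p = 0.0336 and 0.032).

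ITGB6, the epithelial beta chain whose pair with alpha V activates latent TGF-beta, parted the CtBP1-labelled and CtBP2 knockdown arrays to opposite sides of the controls. Its signals were 6.02 and 5.20 on the scramble arrays, 6.25, 6.73 and 7.06 on the CtBP1-labelled arrays and 4.75 and 4.47 on the CtBP2 knockdown arrays. Every CtBP1-labelled array was above both controls and both CtBP2 knockdown arrays were below them. The log2 difference from scramble was 1.07 ± 0.33 on the CtBP1-labelled arrays (0.66 without scramble control 2) and -1.00 ± 0.36 in the CtBP2 knockdown (-0.59 without scramble control 1). Set directly against each other, the knockdowns differed by 2.07 ± 0.33, a 4.19-fold difference at an adjusted p of 0.212, which was the set's smallest. It ran from 1.88 to 2.28 when each array was left out in turn.

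ITGB1, the common partner of most alpha chains, stood out only in the CtBP2 knockdown. Its signals were 7.17 on both scramble arrays, 7.35, 7.22 and 7.17 on the CtBP1-labelled arrays and 7.78 and 8.07 on the CtBP2 knockdown arrays, which lay above all others. The difference from scramble was 0.75 ± 0.15 (adjusted p = 0.257), and that of the CtBP1-labelled arrays from the CtBP2 knockdown was -0.67 ± 0.13 (adjusted p = 0.284). The value is identical on 3 arrays, both controls among them, and such ties can understate the spread. Over the set 15 of the 48 genes were tied on some arrays, and over all genes 40.0%.

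Of the remaining beta chains none separated a knockdown from the controls. ITGB8, another alpha V partner that handles latent TGF-beta, varied most, with 3.62 and 7.55 on the scramble arrays, 7.67, 5.88 and 7.05 on the CtBP1-labelled arrays and 5.40 and 5.33 in the CtBP2 knockdown. The 2 controls were 3.92 log2 units apart, which is more than any difference between groups for this gene. ITGB4, the laminin-binding partner of alpha 6 in hemidesmosomes, was at 6.38 and 7.19, then 6.82, 6.56 and 7.98, then 6.08 and 6.56 in the same order, with overlapping groups. ITGB5, also an alpha V partner, had 6.57 and 6.87, then 6.62, 6.78 and 7.24, then 6.92 and 6.67, with all groups overlapping.

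**Figure D2:**
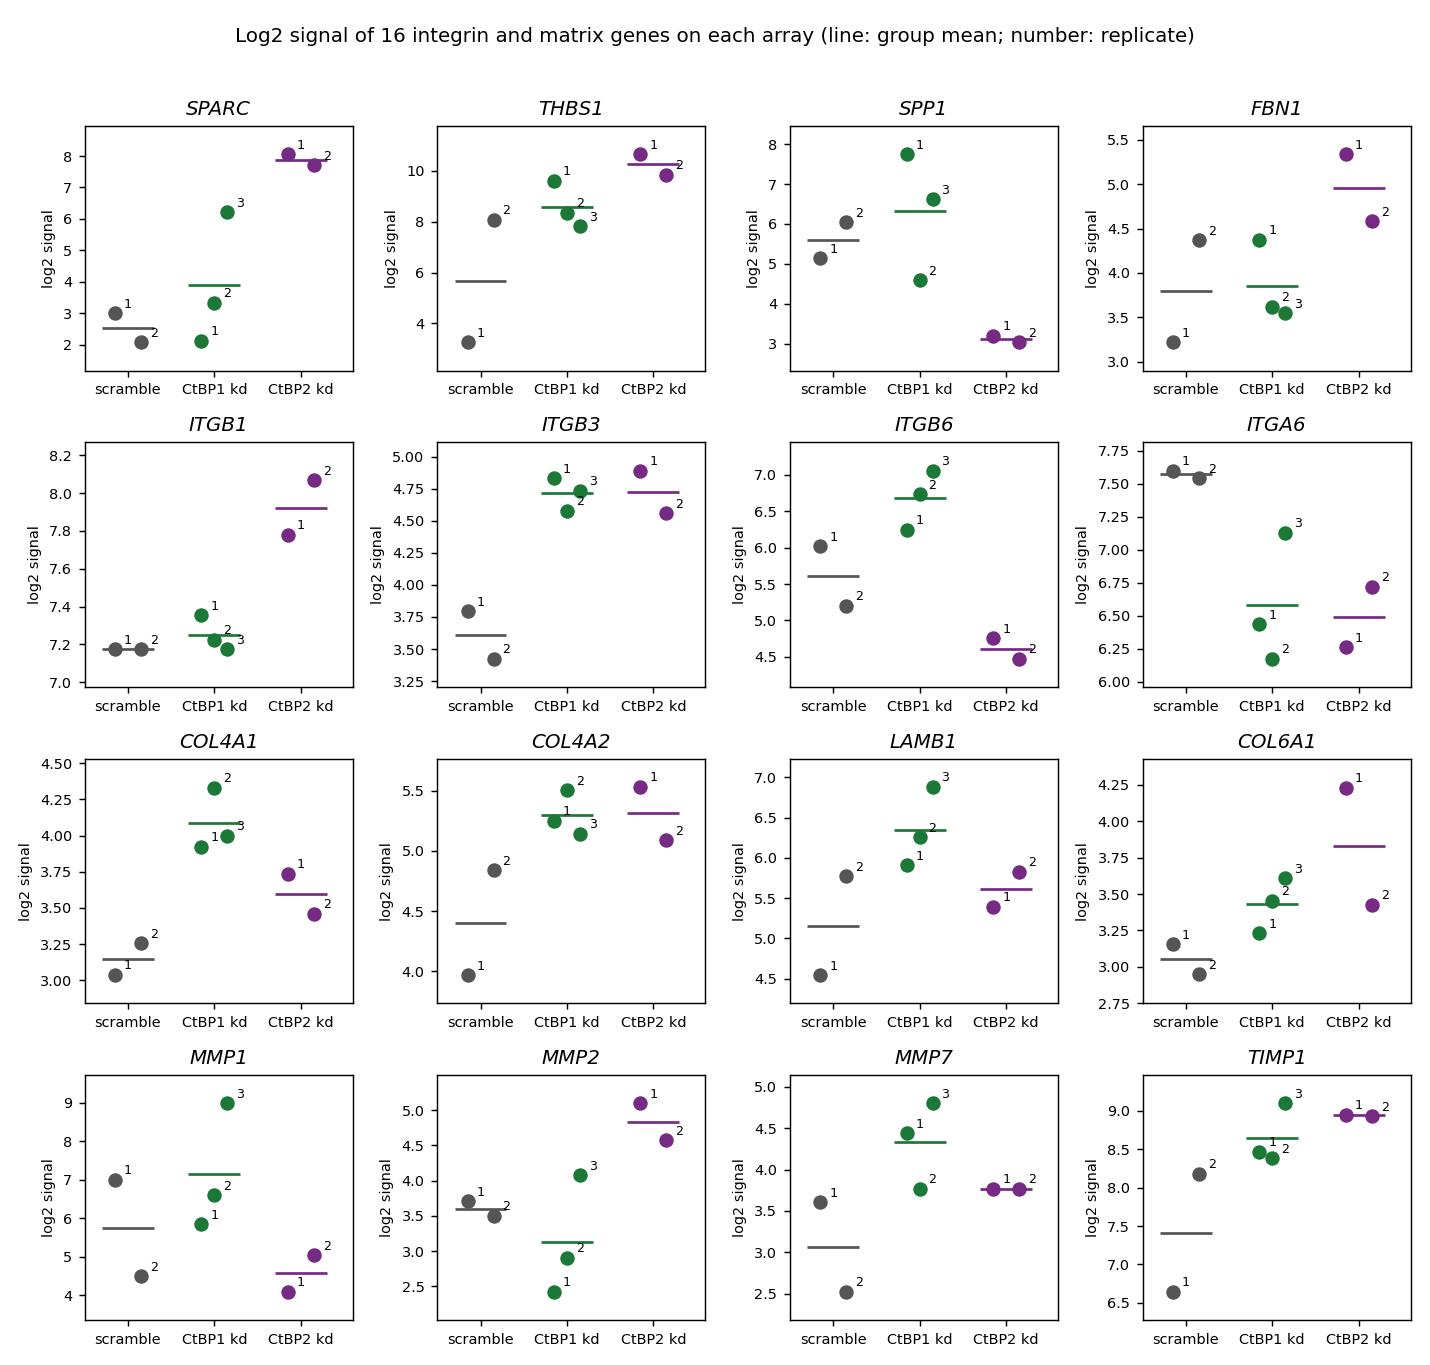
Log2 signal (vertical axis, scaled per gene) of 16 genes of the set on each array, by group; points are arrays with their replicate number and lines are group means. ITGB3 is higher on all 5 other arrays than on both controls. ITGB6 lies above the controls on the CtBP1-labelled arrays and below them on the CtBP2 knockdown arrays. THBS1 and TIMP1 are lowest on scramble control 1.

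Of the 7 laminin chains measured, LAMB1, the beta 1 chain of many basement membrane laminins, was the only one at an unadjusted p under 0.05 by limma in any comparison. It was at 4.54 and 5.77 on the scramble arrays, 5.91, 6.26 and 6.88 on the CtBP1-labelled arrays and 5.39 and 5.83 on the CtBP2 knockdown arrays. All 3 CtBP1-labelled arrays exceeded the other 4, by 1.19 ± 0.44 over scramble (adjusted p = 0.734), which was 0.58 without scramble control 1 and 1.81 without scramble control 2. LAMC1, the gamma 1 chain that most laminins share, had 7.31 and 7.89, then 7.37, 7.59 and 7.99, then 7.42 and 7.44 in the same order, with overlapping groups. LAMB3, a chain of the laminin that anchors epithelia, was at 6.83 and 5.58 on the scramble arrays, 5.85, 6.84 and 6.26 on the CtBP1-labelled arrays and 7.13 and 6.99 in the CtBP2 knockdown. The latter were above all other arrays, by 0.86 ± 0.47 over scramble (adjusted p = 0.535), which was 1.48 without scramble control 1 and 0.23 without scramble control 2. LAMA5 stood out on CtBP1-labelled array 3 alone, at 5.75 against 4.46 to 4.75 elsewhere. LAMA1, LAMA4 and LAMB2 varied by 0.26 to 0.64 over the 7 arrays.

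Type IV collagen, the network former of basement membranes, lay above both controls on the CtBP1-labelled and the CtBP2 knockdown arrays. COL4A1 was measured at 3.04 and 3.26 on the scramble arrays, 3.92, 4.33 and 4.0 on the CtBP1-labelled arrays and 3.74 and 3.46 in the CtBP2 knockdown. The groups formed 3 steps without overlap, with the CtBP1-labelled arrays highest. Their difference from scramble was 0.94 ± 0.18 (adjusted p = 0.734), and 0.83 and 1.04 without scramble control 1 and 2. The CtBP2 knockdown differed from scramble by 0.45 ± 0.19 (adjusted p = 0.5), and the CtBP1-labelled arrays from it by 0.49 ± 0.18 (adjusted p = 0.575). COL4A2, whose chain winds together with that of COL4A1, was at 3.97 and 4.84 on the scramble arrays, 5.25, 5.51 and 5.14 on the CtBP1-labelled arrays and 5.53 and 5.09 in the CtBP2 knockdown. All 5 other arrays lay above both controls. The differences from scramble were 0.90 ± 0.29 and 0.91 ± 0.32 (adjusted p = 0.734 and 0.446), and 0.46 and 0.47 without scramble control 1.

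COL4A1 and COL4A2 lie head to head on chromosome 13 and are read in opposite directions from a short shared stretch. The 126 bases between their RefSeq starts are shown because this pair of genes shares them, in the direction of COL4A2, with a GC box (GGGCGG or its reverse complement) in capitals (GRCh38.p14, chr13:110307158-110307283, plus strand).
COL4A1-COL4A2: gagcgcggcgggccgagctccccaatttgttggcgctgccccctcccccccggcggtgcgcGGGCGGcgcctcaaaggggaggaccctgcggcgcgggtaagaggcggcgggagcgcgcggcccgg
The arrays measure RNA and hold no readout of this stretch.

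COL6A1 and COL6A2, chains of the microfibrillar type VI collagen, were brightest on CtBP2 knockdown array 1. COL6A1 had 3.16 and 2.95 on the scramble arrays, 3.23, 3.45 and 3.61 on the CtBP1-labelled arrays and 4.23 and 3.43 in the CtBP2 knockdown. All other arrays were above both controls. The CtBP2 knockdown differed from scramble by 0.78 ± 0.28 (adjusted p = 0.454), or by 0.38 without its array 1 and 1.18 without its array 2. COL6A2 was at 4.59 and 3.54, then 3.78, 4.06 and 4.07, then 5.25 and 4.25 in the same order. It overlapped the controls in both knockdowns, while its CtBP1-labelled arrays all lay under both CtBP2 knockdown arrays. COL12A1, a chain that decorates collagen fibrils, had 5.16 and 7.01 on the scramble arrays, 6.52, 5.95 and 6.33 on the CtBP1-labelled arrays and 6.99 and 6.41 in the CtBP2 knockdown, all of them between the controls. The other 6 collagen genes include the fibrillar chains COL1A1, COL1A2 and COL3A1, made mainly by fibroblasts. These 6 genes differed from scramble by -0.45 to 0.18 in either knockdown. The range was -0.00074 to 0.28 without scramble control 1 and -0.89 to 0.07 without scramble control 2.

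Matrix proteins outside these families held the widest differences of the set. SPARC, a secreted collagen- and calcium-binding matrix protein, was measured at 3.00 and 2.07 on the scramble arrays, 2.13, 3.34 and 6.22 on the CtBP1-labelled arrays, and 8.06 and 7.71 on the CtBP2 knockdown arrays. The CtBP2 knockdown arrays were far above all others, and CtBP1-labelled array 3 lay between them and the rest. The difference of the CtBP2 knockdown from scramble was 5.35 ± 1.25, a 40.7-fold signal, and ranked 1 of the 17958 genes, yet its adjusted p was 0.325. It was 5.81 and 4.88 without scramble control 1 and 2. On the CtBP1-labelled arrays the difference was 1.36 ± 1.14, and it was 0.20 without their array 3, 2.24 without their array 1 and 0.89 without scramble control 2. The CtBP1-labelled arrays differed from the CtBP2 knockdown by -3.99 ± 1.14 (adjusted p = 0.464). The spread among the 3 CtBP1-labelled arrays was thus larger than their distance from the controls.

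SPP1, which encodes osteopontin, a ligand of alpha V integrins, was the reverse case. Its signals were 5.14 and 6.05 on the scramble arrays, 7.75, 4.59 and 6.62 on the CtBP1-labelled arrays and 3.20 and 3.03 on the CtBP2 knockdown arrays. The CtBP2 knockdown arrays lay close together and were lowest, while the CtBP1-labelled arrays spread on both sides of the controls. The CtBP2 knockdown differed from scramble by -2.48 ± 0.97 (adjusted p = 0.481). The CtBP1-labelled arrays differed from the CtBP2 knockdown by 3.20 ± 0.88, which ranked 1 of the 17958 genes (adjusted p = 0.452) and ran from 2.49 to 4.07 when each array was left out. SPP1, ITGB6 and COL4A1 were the 3 genes of the set higher on the CtBP1-labelled arrays than in the CtBP2 knockdown at an unadjusted p under 0.05 by limma. The promoters of ITGB6 and SPP1 are shown because these genes parted the knockdowns most widely in that direction at that limit and because both hold the E-box CAGGTG, a motif known to be bound by ZEB repressors, which recruit CtBP proteins.

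The 250 bases before each RefSeq start (GRCh38.p14) carry 1 match each, in capitals, read on either strand. For ITGB6 the window is chr2:160200273-160200522 on the minus strand, and for SPP1 chr4:87975464-87975713 on the plus strand.
ITGB6: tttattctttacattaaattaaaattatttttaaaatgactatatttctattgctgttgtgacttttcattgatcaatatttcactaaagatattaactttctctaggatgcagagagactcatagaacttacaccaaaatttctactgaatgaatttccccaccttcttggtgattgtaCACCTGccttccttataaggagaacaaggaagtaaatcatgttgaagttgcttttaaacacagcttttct
SPP1: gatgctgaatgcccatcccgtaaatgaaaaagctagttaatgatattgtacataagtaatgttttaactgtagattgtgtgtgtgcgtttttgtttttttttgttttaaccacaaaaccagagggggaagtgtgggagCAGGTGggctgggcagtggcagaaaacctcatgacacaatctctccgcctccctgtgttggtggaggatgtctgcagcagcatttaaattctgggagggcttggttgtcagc
Such a match is common. Of the 48 genes, 33 had a promoter window in the RefSeq table, 41 windows in all, and CAGGTG on either strand was in 7 windows (17.1%), those of ITGA6, ITGA11, ITGB5, ITGB6, LAMA5, LAMB3 and SPP1, beside 17.5% of 35116 windows of all genes. The AP-1 motif TGANTCA, the same on both strands, was in 2 windows (4.88%, beside 6.57%), those of MMP7 and LAMB3. The GC box was in 26 (63.4%, beside 42.6%). Matches of different motifs may share bases, and a match is a description of the sequence, not a bound site.

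THBS1, which encodes thrombospondin-1, a matrix protein that binds integrins and activates TGF-beta, had the widest range of the set, 7.40 log2 units. It was at 3.25 and 8.08 on the scramble arrays, 9.61, 8.36 and 7.82 on the CtBP1-labelled arrays, and 10.65 and 9.85 on the CtBP2 knockdown arrays. Scramble control 1 stood apart from the other 6 arrays, and the CtBP2 knockdown was highest. The difference from scramble was 2.93 ± 1.38 on the CtBP1-labelled arrays and 4.58 ± 1.51 in the CtBP2 knockdown (adjusted p = 0.734 and 0.429). Both ranked 2 of the 17958 genes, but most of their size came with scramble control 1. Against scramble control 2 alone they were 0.51 and 2.17, and against scramble control 1 alone 5.34 and 7.0. FBN1, the fibrillin of elastic microfibrils, had 3.22 and 4.37, then 4.38, 3.62 and 3.55, then 5.34 and 4.58 in the same order, with the CtBP2 knockdown above all others. It differed from scramble by 1.17 ± 0.49 (adjusted p = 0.495), or 0.59 without scramble control 1. The CtBP1-labelled arrays differed from the CtBP2 knockdown by -1.11 ± 0.45 (adjusted p = 0.629), or by -0.73 without CtBP2 knockdown array 1. TNC, a matrix glycoprotein of tumour stroma, and VTN, the alpha V ligand vitronectin, varied by 0.96 and 0.16 over the 7 arrays.

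**Figure D3:**
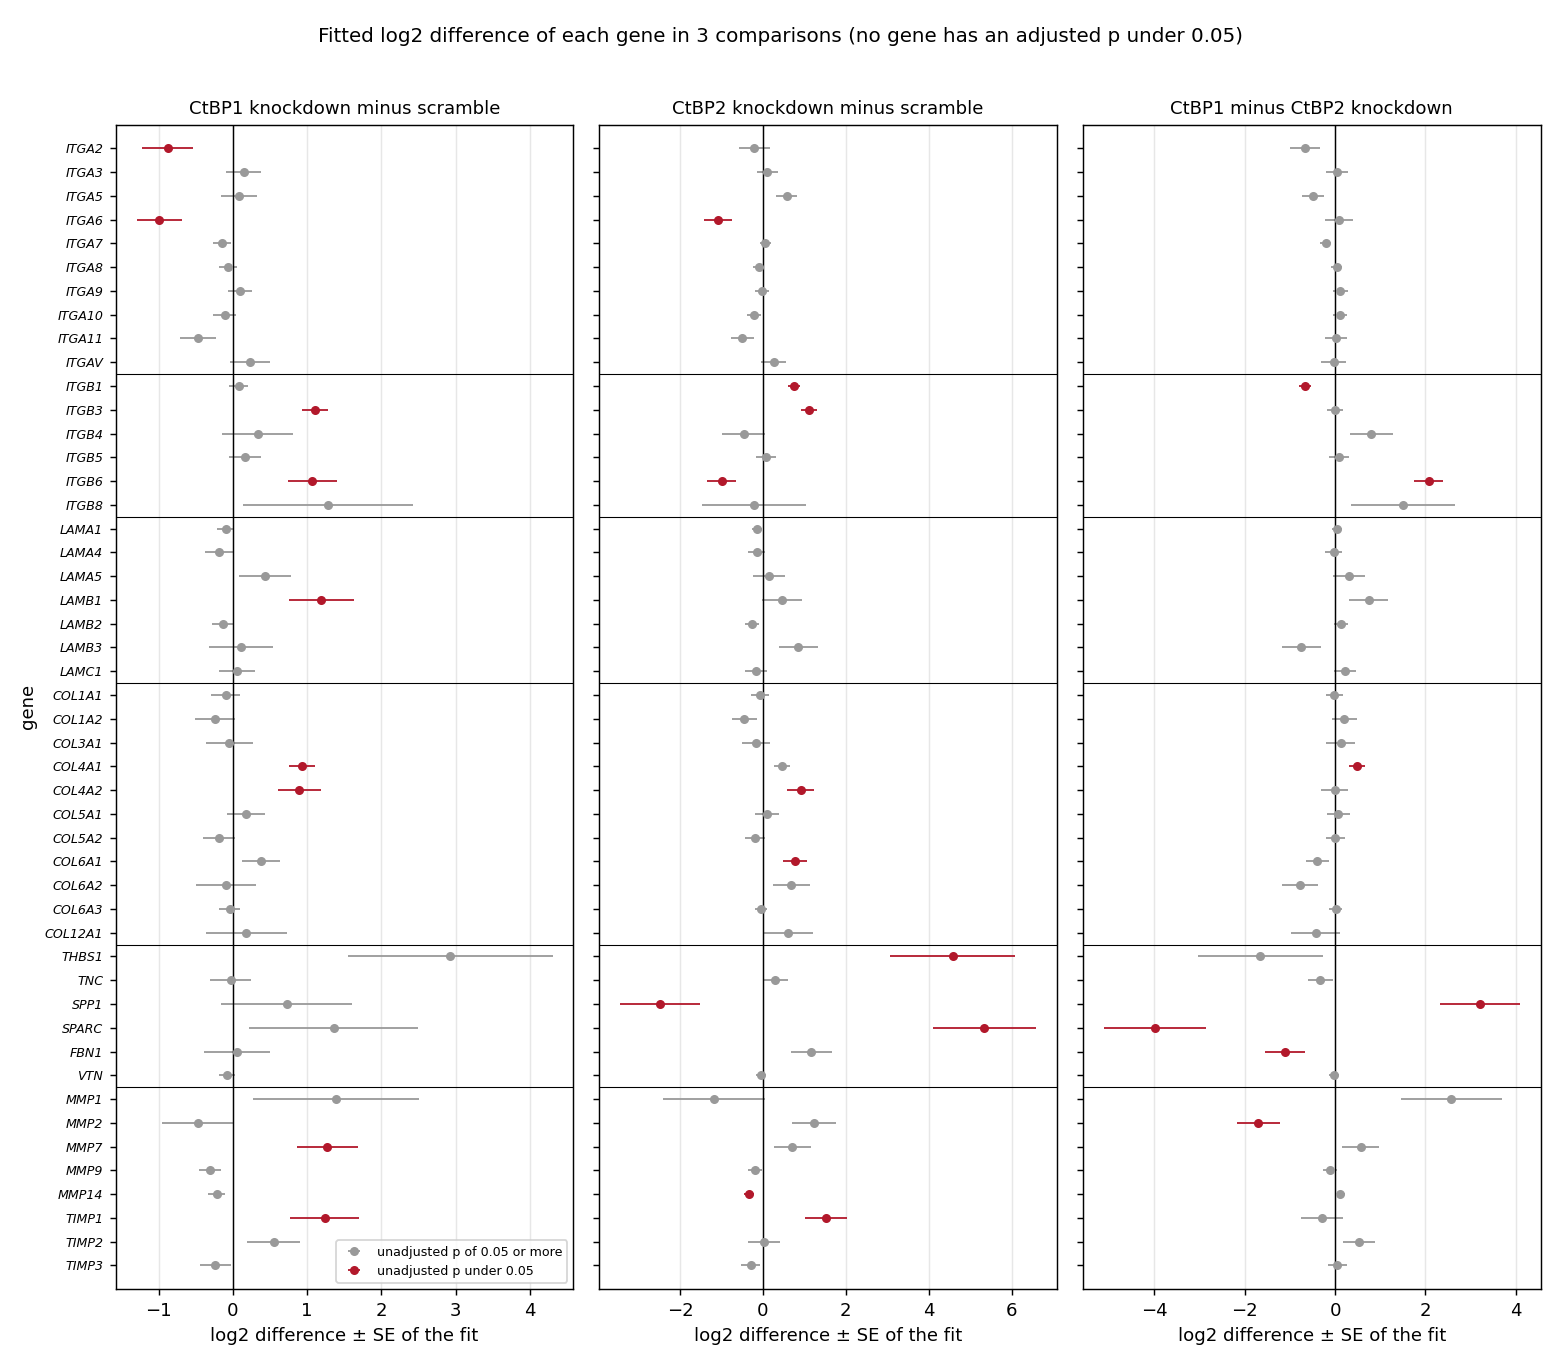
Fitted log2 difference (horizontal axis) of each of the 48 genes in 3 comparisons, with bars of 1 SE of the limma fit; red marks an unadjusted p under 0.05 and the horizontal lines part the roles. SPARC (5.35) and THBS1 (4.58) reach farthest in the CtBP2 knockdown, SPP1 (3.20) and ITGB6 (2.07) are higher on the CtBP1-labelled arrays than in the CtBP2 knockdown, and no gene has an adjusted p under 0.05.

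MMP1, the interstitial collagenase, was measured at 7.0 and 4.51 on the scramble arrays, 5.84, 6.6 and 8.99 on the CtBP1-labelled arrays, and 4.10 and 5.04 on the CtBP2 knockdown arrays. The controls were 2.49 apart, and the CtBP1-labelled arrays were above both CtBP2 knockdown arrays. That last difference was 2.57 ± 1.12 (adjusted p = 0.689), and 1.65 without CtBP1-labelled array 3. MMP2, a gelatinase that digests type IV collagen, was at 3.71 and 3.50, then 2.43, 2.91 and 4.07, then 5.10 and 4.58 in the same order. The CtBP2 knockdown was above all other arrays, and the CtBP1-labelled arrays differed from it by -1.70 ± 0.48 (adjusted p = 0.458). Against scramble the CtBP2 knockdown differed by 1.23 ± 0.53 (adjusted p = 0.5). So both proteases separated the knockdowns from each other, in opposite directions. MMP7, matrilysin, an epithelial protease, had 3.61 and 2.53 on the scramble arrays, 4.44, 3.77 and 4.80 on the CtBP1-labelled arrays and 3.77 on both CtBP2 knockdown arrays. All other arrays exceeded the controls, and the CtBP1-labelled ones did so by 1.27 ± 0.41 (adjusted p = 0.734), or by 0.73 without scramble control 2. MMP14, a membrane-bound activator of MMP2, stayed between 2.11 and 2.50, with a difference of -0.33 ± 0.12 in the CtBP2 knockdown (adjusted p = 0.458), and MMP9 between 1.94 and 2.53.

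Among the inhibitors, TIMP1 was at 6.65 and 8.18 on the scramble arrays, 8.47, 8.38 and 9.10 on the CtBP1-labelled arrays and 8.95 and 8.93 in the CtBP2 knockdown. All 5 other arrays were above both controls, but scramble control 1 was far below the rest. The differences from scramble of 1.24 ± 0.46 and 1.53 ± 0.51 (adjusted p = 0.734 and 0.431) were 0.47 and 0.76 without scramble control 1, and 2.00 and 2.29 without scramble control 2. TIMP2, which also helps activate MMP2, had 7.53 and 8.79, then 8.82, 8.79 and 8.54, then 8.19 and 8.18 in the same order. The CtBP2 knockdown lay between the controls, and the CtBP1-labelled arrays all lay above both CtBP2 knockdown arrays. TIMP3, a matrix-bound inhibitor, stayed between 2.11 and 2.83.

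The sizes of many differences from scramble followed the control kept. The controls differed from each other by over 1 log2 unit for 11 of the 48 genes. Their median difference in absolute value was 0.452, against 0.161 between the CtBP2 knockdown arrays. Over all genes these medians were 0.377 and 0.117. For the CtBP1-labelled arrays 27 of the 48 genes had the same sign of difference against either control alone, and for the CtBP2 knockdown 30. Both counts include ITGB1 and VTN, whose value was the same on both controls. The 30 also include MMP9, whose signal was 2.14 on scramble control 2 and on both CtBP2 knockdown arrays. The CtBP2 knockdown arrays likewise matched scramble control 2 for LAMA5 and scramble control 1 for COL5A1, and these genes were not counted. Equal signals give no sign, so rounding alone placed MMP9, LAMA5 and COL5A1. These signs were not counted over all genes. Without scramble control 2, with scramble control 1 as the lone control and its spread taken from the other groups, limma called 11 of the 48 genes for the CtBP1-labelled arrays and 10 for the CtBP2 knockdown, where 18.2% and 22% of all genes were called. Of those, ITGB8 and TIMP2 differed by 3.24 and 1.18 on the CtBP1-labelled arrays against scramble control 1, and by -0.68 and -0.08 against scramble control 2. The difference of COL4A1 on the CtBP1-labelled arrays depended less on the control, at 0.83 and 1.04, while for ITGB1, with the same value on both controls, leaving one out cannot change the difference. For COL4A1 in the CtBP2 knockdown it was 0.34 without scramble control 1 and 0.56 without scramble control 2.

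**Figure D4:**
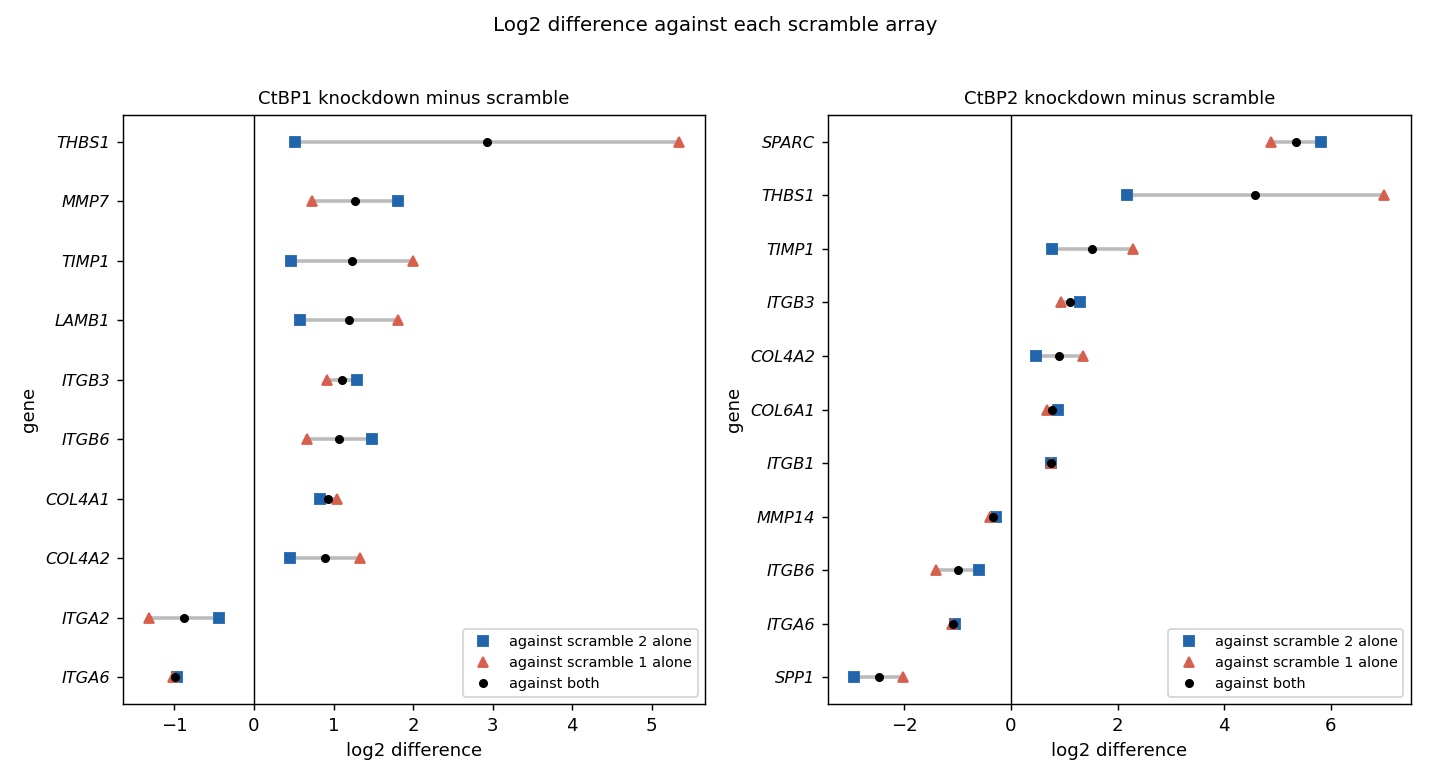
Log2 difference from scramble (horizontal axis) of the genes with an unadjusted p under 0.05, plus THBS1 in the left panel, for the CtBP1-labelled arrays (left) and the CtBP2 knockdown (right), against both controls (circles), scramble control 2 alone (squares) and scramble control 1 alone (triangles). The THBS1 value for the CtBP1-labelled arrays runs from 0.51 to 5.34, while that of ITGA6 runs from -0.97 to -1.02.

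The wider pathway was followed through 5 lists of 199 further genes, 185 of them measured, and none passed the test. At an unadjusted p under 0.05 by limma there were 16 higher and 4 lower for CtBP1-labelled arrays against scramble (10.8% of the 185, beside 4.79% of all genes), 18 higher and 3 lower for the CtBP2 knockdown against scramble (11.4%, beside 10.2%), and 6 higher and 13 lower for the CtBP1-labelled arrays against the CtBP2 knockdown (10.3%, beside 7.77%). Epithelial markers also differed in level, with a mean over 8 genes of 6.12 and 5.77 in the CtBP2 knockdown against 5.06 to 5.43 elsewhere. Among them KRT19, CDH1 and CLDN4 did not separate the CtBP2 knockdown from the other arrays. The part of these marker levels in the matrix results was not tested.

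Of 64 other matrix proteins, TGFBI, an integrin-binding matrix protein induced by TGF-beta, had the smallest p. It was at 3.17 and 4.0 on the scramble arrays, 5.63, 4.88 and 5.81 on the CtBP1-labelled arrays and 8.05 and 7.39 in the CtBP2 knockdown, 3 steps without overlap. The CtBP2 knockdown differed from scramble by 4.14 ± 0.43 (adjusted p = 0.16). MFAP2, a microfibril protein that binds fibrillin, differed there by 1.67 ± 0.39, and by 1.08 without CtBP2 knockdown array 1. MATN3, a matrilin of cartilage, differed by 0.44 ± 0.16 on the CtBP1-labelled arrays, and by 0.26 without scramble control 1. It was at 3.74 and 3.68 in the CtBP2 knockdown, also above both controls (3.19 and 3.56). In this list 4 of 64 genes were higher and 0 lower at an unadjusted p under 0.05 by limma in the CtBP2 knockdown, where 7.19% of all genes were higher and 2.98% lower.

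Enzymes that build collagen were higher in the CtBP2 knockdown for 4 of 23 measured genes at an unadjusted p under 0.05 by limma, and lower for 0, beside the same 7.19% and 2.98% of all genes. P4HA2, a collagen prolyl hydroxylase, was at 4.76 and 4.79 on the scramble arrays, 4.75, 4.65 and 4.65 on the CtBP1-labelled arrays and 5.40 and 5.58 in the CtBP2 knockdown. The CtBP2 knockdown lay above the controls by 0.72 ± 0.12 (adjusted p = 0.238), and the CtBP1-labelled arrays all lay just below them, by -0.09 ± 0.11. PLOD2, a lysyl hydroxylase that sets collagen crosslinks, differed there by 0.79 ± 0.18 (adjusted p = 0.323), and between the CtBP1-labelled arrays and the CtBP2 knockdown by -1.11 ± 0.17 (adjusted p = 0.202). LOXL2, a lysyl oxidase that crosslinks collagen, differed from scramble by 1.32 ± 0.37 on the CtBP1-labelled arrays (0.77 without scramble control 1). COLGALT1, a collagen galactosyltransferase, differed there by 0.97 ± 0.35 (0.38 without scramble control 1 and 1.56 without scramble control 2). Both genes also exceeded both controls in the CtBP2 knockdown. LOXL2 had 7.26 and 7.31 there against 5.16 and 6.27, and COLGALT1 6.78 and 6.51 against 4.91 and 6.09.

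In the adhesion complex inside the cell, 43 genes were measured. FERMT1, the epithelial kindlin that activates integrins through their beta tails, was at 4.66 and 4.53 on the scramble arrays, 4.53, 4.16 and 3.85 on the CtBP1-labelled arrays and 6.27 and 5.62 in the CtBP2 knockdown, which lay above all others by 1.35 ± 0.29 over scramble (adjusted p = 0.296). FERMT2, its widely expressed relative, was higher in the CtBP2 knockdown than on the CtBP1-labelled arrays, a difference of -0.81 ± 0.25 for the latter minus the former (adjusted p = 0.493). PXN, the scaffold paxillin, differed from scramble by 0.69 ± 0.22 on the CtBP1-labelled arrays (0.35 without scramble control 1). The actin-linking parvin PARVA differed there by -0.40 ± 0.12, and ARHGEF7, an exchange factor at adhesions, by -0.87 ± 0.21 in the CtBP2 knockdown. PXN and PARVA lay on the same side of both controls in the CtBP2 knockdown, and ARHGEF7 did so on the CtBP1-labelled arrays.

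Other receptors of the matrix included SDC4, the heparan sulphate proteoglycan syndecan-4, at 5.92 and 5.99 on the scramble arrays, 6.37, 6.40 and 6.45 on the CtBP1-labelled arrays and 6.73 and 6.92 in the CtBP2 knockdown. These were again 3 steps without overlap, with differences from scramble of 0.45 ± 0.11 and 0.87 ± 0.13 (adjusted p = 0.734 and 0.184). CD44, the hyaluronan receptor, differed by 0.46 ± 0.13 in the CtBP2 knockdown. MRC2, a collagen uptake receptor, differed by 0.76 ± 0.30 on the CtBP1-labelled arrays, or 0.50 without their array 3. CD44 on the CtBP1-labelled arrays and MRC2 in the CtBP2 knockdown also lay above both controls. Among 39 further proteases and inhibitors, ADAM12, a membrane metalloprotease, was at 2.64 and 3.09, then 3.92, 3.71 and 3.69, then 4.47 and 4.43 in the same order, with differences from scramble of 0.91 ± 0.17 and 1.59 ± 0.18 (adjusted p = 0.734 and 0.18). CTSB, the lysosomal protease cathepsin B, was at 9.04 and 8.79 in the CtBP2 knockdown against 7.55 to 7.77 on the other 5 arrays. CTSL, cathepsin L, differed from scramble by -1.13 ± 0.26 on the CtBP1-labelled arrays (adjusted p = 0.734). It was at 6.02 and 6.08 in the CtBP2 knockdown, also below both controls (6.69 and 7.18).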

How the data were processed

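Total RNA of SKOV3 cells was hybridised to 7 arrays. The authors' deposited log2 signals, 1 per transcript cluster and array, come from RMA in Affymetrix Expression Console, per the submitters' processing notes; versions and the genome build were not given in the sources used here. RMA corrects background, normalizes between arrays and summarises probes, but the deposited distributions were not equal. The labels name a silica column for RNA extraction and the design text TRIzol; source names run from SKOV3 to SKOV9, a different one per sample, while the cell line field gives SKOV3 for all. Of 33297 clusters, 19181 carry 1 gene symbol; symbols were updated through Entrez identifiers with RefSeq (GRCh38.p14), and the brightest cluster per gene was kept, which gave 17958 genes. No dim gene was removed, and arrays give no depth, so their number limits the precision.

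The 3 group means were fitted to all 7 arrays with limma 3.58.1 in R 4.3.3 (lmFit, eBayes, 4 residual degrees of freedom). P-values are two-sided and adjusted by Benjamini-Hochberg over all genes. The fit was run on simulated data with known changes and the same spread for every gene and array. That run does not cover a deviating array or tied values. Alternatives covered normalization, filters, cluster choice, the prior, samples fitted, array weights, tied values, blocking on replicate number, and each array left out. The members and lists were chosen with earlier results of these data known. The rule for members given by array was any past the threshold, up to 6 with the smallest p per comparison and the brightest 3 of each role; for pathway genes, any past the threshold and up to 2 per list and comparison. ITGA2, ITGA5, ITGB8, COL6A1 and FBN1, and the values singled out for LAMA5 and MMP14, were added after their values were seen, as were the comparisons of THBS1, SPARC, SPP1, FBN1, MMP2, COL4A1 and MMP1 beyond that rule. Up to 3 promoters were to be shown; protein sequences were not used here. Promoter windows are from RefSeq. Figures were drawn with matplotlib 3.10.9.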

Additional observations from a re-analysis of the deposited data

Results flagged for a closer look

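ITGB6 was singled out because every array of the CtBP1-labelled group lay above both scramble arrays and both CtBP2 knockdown arrays lay below them. The difference between the knockdowns was 2.07 ± 0.33 on the log2 scale and did not pass the limma test over all genes (adjusted p = 0.212). No group had enough arrays for a test of single outlying arrays.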

How the results depend on the processing

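For 36 named genes, 65 differences were followed under up to 19 alternatives, and in none of 1213 cases did the direction turn; these differences were chosen mostly by small p on the same arrays, which makes a turn unlikely. In 31 cases a difference passed the threshold, 23 of them without scramble control 2 and 7 with array weights; the other was TGFBI in the CtBP2 knockdown with genes under a mean signal of 4 left out. Members called over the set changed from 0 only with array weights for CtBP1-labelled against CtBP2 knockdown arrays (1, ITGB6, adjusted p = 0.025) and without scramble control 2; leaving out each array gave 0 to 11 for the CtBP1-labelled arrays against scramble, 0 to 10 for the CtBP2 knockdown against scramble and 0 for the knockdowns against each other.

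Genes of the set at an unadjusted p under 0.05 numbered 4, 5 and 16 with array weights (beside 1.41%, 5.96% and 17.5% of all genes), in the order of CtBP1-labelled arrays against scramble, CtBP2 knockdown against scramble, and the knockdowns against each other. For the CtBP2 knockdown against scramble they numbered 7 with only the groups compared (6.2% of all genes) and 7 with the replicate block (7.1%). Leaving out each array gave 4 to 14, 3 to 16 and 4 to 10, and the highest counts went with 36.3%, 39.7% and 14.2% of all genes. The median difference over the set, for which the spread between arrays was 0.043 (SD), was 0.17, 0.15 and -0.028 with median centring, a step that by itself moved the median of all genes in the CtBP2 comparison by 0.15. For the comparisons with scramble it was 0.18 and 0.26 without the dimmest genes (mean signal under 2.39), 0.28 and 0.20 without genes under a mean signal of 4, and 0.15 and 0.11 without tied genes, each over fewer genes. With the replicate block it was -0.015 for the CtBP1-labelled arrays, as without their array 3, which has no same-numbered array. Leaving out each array gave -0.015 to 0.11, -0.00036 to 0.11 and -0.010 to 0.049. Deviations of same-numbered arrays from their group means had correlations of -0.35 to 0.10 over all genes. In a group of 2 arrays these deviations mirror each other, so this cannot tell whether the numbers pair arrays. With the replicate block 0 genes of the set were called. The cause of these changes was not tested. The scramble and CtBP2 knockdown groups had 2 arrays each, and scramble control 1 stood apart.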
